A study of Mus musculus with 20 samples.

Results

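Reads of 10 genes of oligodendrocyte precursor cells (OPCs) were followed in astrocytes sorted from the mouse forebrain after fluid percussion injury (FPI). The genes were *Tnr*, *Gpr17*, *Neu4*, *C1ql1*, *Matn4*, *Pdgfra*, *Cspg4*, *Olig1*, *Olig2* and *Sox10*, 10 of the 39017 identifiers in the count table. They were chosen for their levels in the FPI and sham astrocyte libraries themselves, so in that contrast their values are a description and no p is given for them. All 10 had counts in astrocytes, 8 passed the filter on low counts there, and *Neu4* and *C1ql1* did not.

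Adult male mice, C57BL/6 in the labels and C57BL/6J in the study's methods, 3 to 4 months old, received either lateral FPI, in which a pulse of fluid strikes the exposed dura, or sham injury, in which the mouse was connected to the device but the pulse was not released. At day 7 the ipsilateral forebrain was dissociated, and microglia (CD11b+ with intermediate CD45) and astrocytes (ACSA-2+, an epitope on the product of *Atp1b2*) were separated by flow cytometry. RNA of each sort was sequenced without pooling, which gave 5 libraries in each of 4 groups: sham microglia, FPI microglia, sham astrocytes and FPI astrocytes. No group carried a transgene, and sham mice shared the craniectomy, anesthesia and connection with FPI mice.

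OPCs are the dividing glia from which oligodendrocytes arise in development and throughout adult life. They carry the receptor PDGFRα and the proteoglycan NG2 (*Cspg4*), and they depend on the transcription factors OLIG2 and SOX10, which mature oligodendrocytes keep. GPR17 marks a stage between precursor and myelinating cell. Neither *Cspg4* nor *Pdgfra* is restricted to OPCs in the brain, since pericytes and smooth muscle cells (mural cells) also make NG2 and fibroblasts of the meninges and vessels also make PDGFRα.

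The labels of some libraries bear on the values. FPI astrocyte library 5 is titled and labelled as astrocytes, but its submitted name ends in the suffix used for microglia and carries animal number 1301, which FPI astrocyte library 2 also carries. The 5 FPI astrocyte libraries therefore held 4 animal numbers. By its RNA library 5 was an astrocyte library: *Aqp4* (the water channel of astrocyte endfeet) was at 703 CPM (a count scaled to a library total shared by all, with TMM factors over the 20 libraries), *Aldh1l1* at 177 CPM and *Atp1b2* at 1210 CPM, within the ranges of the other astrocyte libraries, and the microglial genes *Cx3cr1* and *Tmem119* were at 11.0 and 4.62 CPM, against 2170 CPM or more and 585 CPM or more in every microglia library. Libraries 2 and 5 did not hold the same counts, since a chi-square comparison over genes gave 61.4 per degree of freedom, against 21.3 to 52.4 in the other 5 pairs among FPI astrocyte libraries 2 to 5 and 58.9 to 135 in the 4 pairs with library 1. By their numbers 3 animals also gave a library of each cell type, namely sham microglia 2 and 3 with sham astrocytes 4 and 5, and FPI microglia 1 with FPI astrocytes 3. Total counts ran from 6470553 to 10917112 in astrocytes and from 5623349 to 13110857 in microglia, and FPI astrocyte library 5 was the shallowest of the astrocyte libraries.

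The stretches just upstream of 4 of the genes are shown because *Tnr*, *Neu4* and *Pdgfra* varied together across astrocyte libraries while *Olig2* did not vary with them. Pearson r among *Tnr*, *Neu4* and *Pdgfra* was 0.77 to 0.95, and 0.54 to 0.90 without FPI library 5. With *Olig2* it was -0.01 to 0.08, and 0.15 to 0.25 without that library. These values are a description, and shared regulation was not tested. The stretches are from RefSeq (GRCm38.p6), on the plus strand at chr1:159523519-159523768 (*Tnr*), chr1:94020243-94020450 (*Neu4*), chr5:75152001-75152250 (*Pdgfra*) and chr16:91225300-91225456 (*Olig2*), outside annotated exons. The letters CAGCTG and CAGATG (E-boxes, the kind of site that OLIG proteins bind) and ACAAAG and ACAATG (the kind of site that SOX proteins bind) were searched on both strands, and matches are in capitals.
Tnr: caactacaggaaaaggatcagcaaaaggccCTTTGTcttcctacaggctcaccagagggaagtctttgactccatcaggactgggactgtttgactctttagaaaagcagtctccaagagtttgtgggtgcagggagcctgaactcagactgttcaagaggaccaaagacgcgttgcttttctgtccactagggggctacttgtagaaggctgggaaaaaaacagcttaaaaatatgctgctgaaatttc
Neu4: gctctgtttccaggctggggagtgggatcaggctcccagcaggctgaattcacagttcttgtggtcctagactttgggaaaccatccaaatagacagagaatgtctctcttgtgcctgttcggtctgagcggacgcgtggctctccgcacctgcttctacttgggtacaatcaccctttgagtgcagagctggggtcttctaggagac
Pdgfra: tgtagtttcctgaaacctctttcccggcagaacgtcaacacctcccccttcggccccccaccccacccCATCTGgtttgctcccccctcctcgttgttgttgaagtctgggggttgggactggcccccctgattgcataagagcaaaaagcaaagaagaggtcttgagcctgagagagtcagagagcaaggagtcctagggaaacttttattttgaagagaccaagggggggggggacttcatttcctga
Olig2: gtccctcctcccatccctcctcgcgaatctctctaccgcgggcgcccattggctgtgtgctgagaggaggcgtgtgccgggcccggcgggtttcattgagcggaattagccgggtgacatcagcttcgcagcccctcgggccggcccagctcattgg
The stretch of *Tnr* held 1 ACAAAG, which 16.5% of all 32851 promoter windows cut to the same length held, and that of *Pdgfra* held 1 CAGATG, which 14.4% held. Both lie as their reverse complement on the strand printed, CTTTGT and CATCTG. None of the 4 motifs was in the stretch of *Neu4* (each in 9.3 to 14.1% of windows of that length) or of *Olig2* (6.92 to 10.8%).

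The extracellular matrix genes *Tnr* and *Matn4* were low in sham astrocytes. Every FPI library was above every sham library for *Tnr*, but not for *Matn4*. *Tnr* (chromosome 1, 159523769 to 159931729, plus strand, GRCm38) encodes tenascin-R, a matrix protein of perineuronal nets made by oligodendrocyte lineage cells. It stood at 4.11, 3.48, 4.69, 4.92 and 10.3 CPM in sham astrocyte libraries 1 to 5 and at 16.3, 24.4, 16.2, 17.0 and 125 CPM in FPI libraries 1 to 5. The groups did not overlap, with or without FPI library 5, which was 5.13 times as high as any other astrocyte library. *Matn4* (chromosome 2, 164389393 to 164405160, minus strand), which encodes the matrix adaptor matrilin-4, was at 0.53, 0.0869, 0.104, 5.02 and 2.65 CPM in sham libraries and at 2.57, 5.37, 6.09, 2.93 and 27.4 CPM in FPI libraries. Here sham libraries 4 and 5 reached into the range of the FPI libraries, so the groups overlapped. Its exons share 149 bases with *Rbpjl* on the opposite strand, those of *Tnr* share 443 bases with the antisense gene *Gm38039*, and the setting for strand in the counting is not given in the sources used here.

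*Gpr17* (chromosome 18, 31942997 to 31949636, minus strand), the receptor of committed precursors, was apart between the groups too. Sham astrocyte libraries 1 to 5 held it at 2.25, 0.609, 2.82, 4.92 and 4.29 CPM, and FPI libraries at 8.64, 20, 8.58, 18.5 and 202 CPM. Every FPI library was above every sham library, and FPI library 5 alone held 78.4% of the CPM summed over the FPI libraries. The exons of *Gpr17* share 188 bases with *Lims2* on the opposite strand.

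*Neu4* and *C1ql1* were too low for the filter. *Neu4* (chromosome 1, 94020451 to 94028334, plus strand) encodes a sialidase that trims sialic acid from glycans. It had 0, 0, 0, 0 and 1 counts in the sham astrocyte libraries and 43, 15, 8, 18 and 148 counts in the FPI libraries, a ratio of depth-scaled sums of 268 with a 95% counting interval of 47.5 to 10600. All FPI libraries were above all sham libraries, library 5 the furthest, at 23.6 CPM against 0.995 to 4.43 CPM. *C1ql1* (chromosome 11, 102939264 to 102946688, minus strand), a secreted C1q-like protein, had 1, 0, 5, 3 and 8 counts in sham and 0, 10, 29, 12 and 52 counts in FPI libraries (ratio 6.99, 4.16 to 12.5). Its groups overlapped because FPI library 1 had none, and these intervals cover counting error only, not the spread between libraries.

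*Pdgfra* (chromosome 5, 75152292 to 75198215, plus strand), the receptor through which PDGF-A keeps OPCs dividing, was at 4.77, 10.7, 8.66, 20.7 and 25.0 CPM in sham astrocytes. In FPI astrocytes it was at 15.8, 20.6, 20.8, 36.5 and 97.1 CPM. Sham libraries 4 and 5 lay inside the range of the FPI libraries, and FPI library 5 was 2.66 times the next highest. In bulk RNA of a sort, more cells of a type and more RNA per cell cannot be told apart, for this gene as for the others.

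**Figure D1:**
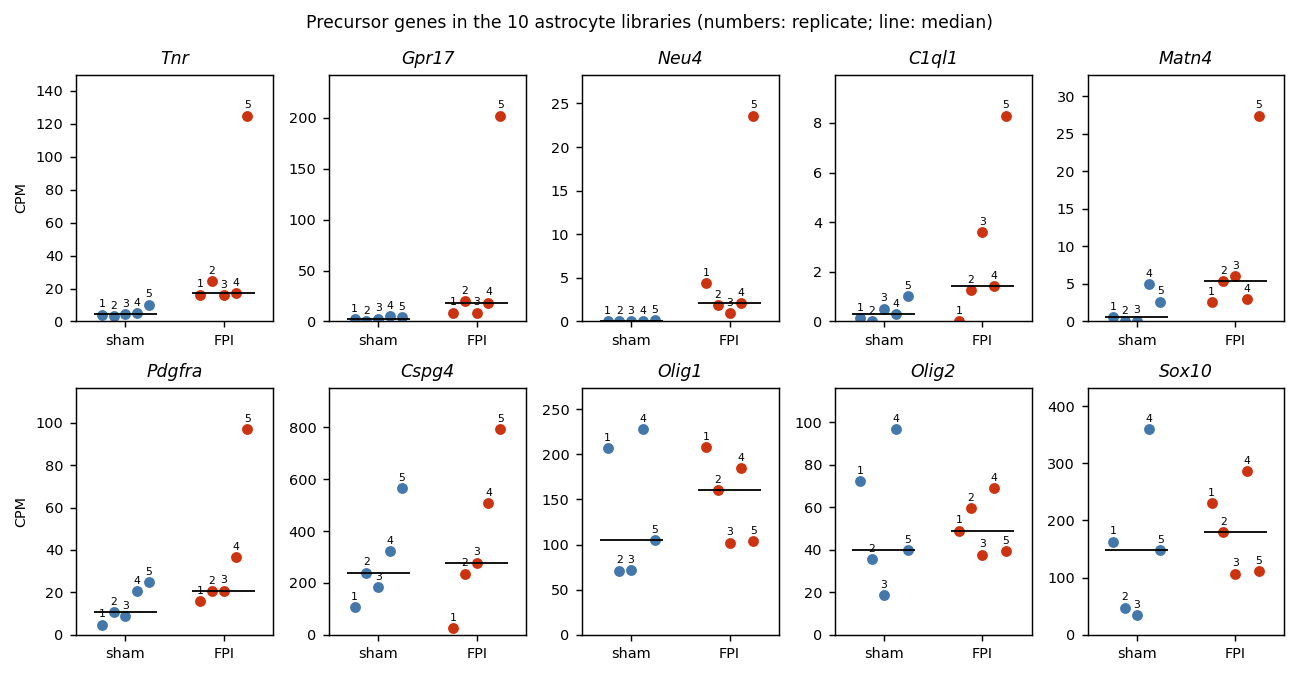
CPM (scaled counts, linear axis from 0, its own scale for each gene) of the 10 genes in the 5 sham (blue) and 5 FPI (red) astrocyte libraries, with the replicate number beside each point and a line at the group median. FPI library 5 is the highest point for *Tnr*, *Gpr17*, *Neu4*, *C1ql1*, *Matn4*, *Pdgfra* and *Cspg4*, and sham library 4 is the highest for *Olig1*, *Olig2* and *Sox10*.

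The other genes of the set did not follow this order. *Cspg4* (chromosome 9, 56865033 to 56899870, plus strand) was at 108, 240, 183, 324 and 566 CPM in sham libraries and at 26.6, 236, 278, 507 and 794 CPM in FPI libraries, so the groups overlapped over most of their range, with the lowest and the highest library both in FPI. *Olig1* (chromosome 16, 91269772 to 91271933, plus strand) was at 207, 71.1, 71.6, 228 and 105 CPM in sham and at 208, 160, 102, 185 and 104 CPM in FPI libraries. *Olig2* (chromosome 16, 91225457 to 91228677, plus strand) was at 72.4, 35.7, 18.5, 96.8 and 40.0 CPM in sham and at 49.0, 59.4, 37.7, 68.9 and 39.4 CPM in FPI libraries. Both encode helix-loop-helix factors of the oligodendrocyte lineage, and their FPI libraries lay inside the sham range. *Sox10* (chromosome 15, 79154908 to 79165240, minus strand), the factor that drives myelin genes, was at 163, 47.6, 34.2, 360 and 148 CPM in sham and at 230, 180, 107, 286 and 111 CPM in FPI libraries. FPI library 5, the highest for 7 of the 10 genes, was the seventh highest of the 10 libraries for each of these 3 transcription factors.

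The fitted changes (edgeR, FPI over sham, log2 scale with standard error, n = 5 libraries a group) were 4.14 (0.97) for *Gpr17*, 2.88 (0.63) for *Tnr*, 2.41 (0.98) for *Matn4* and 1.47 (0.55) for *Pdgfra*. They were 0.39 (0.65) for *Cspg4*, 0.31 (0.55) for *Sox10*, 0.19 (0.36) for *Olig1* and -0.02 (0.37) for *Olig2*. A gene was called when its log2 fold change exceeded 0.6 in either direction and its adjusted p was under 0.1. None of the 8 genes tested was called, and the rule called 0.00728% of the 13741 genes tested, 1 gene in all. That count depended on the fit and ran from 0 to 2 over the alternatives. The groups were apart, with FPI above sham, for *Tnr* and *Gpr17* among the tested genes and for *Neu4* outside the filter, and 0.451% of tested genes were apart in that direction. Since the genes were chosen in this contrast, nothing is read from these counts and shares.

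Without FPI library 5 the fitted change of *Gpr17* was 2.23 (SE 0.51), that of *Tnr* 1.75 (0.33), that of *Matn4* 1.33 (0.94) and that of *Pdgfra* 0.75 (0.43). The change of *Cspg4* was then -0.12 (0.65), on the other side of 0. *Sox10* was at 0.42 (0.58), *Olig1* at 0.27 (0.38) and *Olig2* at 0.03 (0.40), each a little higher than with library 5. *Tnr*, *Gpr17* and *Neu4* still had every remaining FPI library above every sham library, and 0.566% of tested genes did. The ratio of mean CPM in FPI to sham went from 17.3 to 4.68 for *Gpr17*, from 7.22 to 3.35 for *Tnr*, from 5.29 to 2.53 for *Matn4* and from 2.74 to 1.68 for *Pdgfra* when library 5 was left out. Outside the filter the same ratio went from 262 to 93.2 for *Neu4*, whose sham mean rests on 1 count, and from 7.39 to 3.97 for *C1ql1*. For each of these 4 genes leaving out library 5 gave the lowest of the 10 fits with 1 library omitted. For *Matn4* the highest, 3.44, came without sham library 4, which was that gene's highest sham library.

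**Figure D2:**
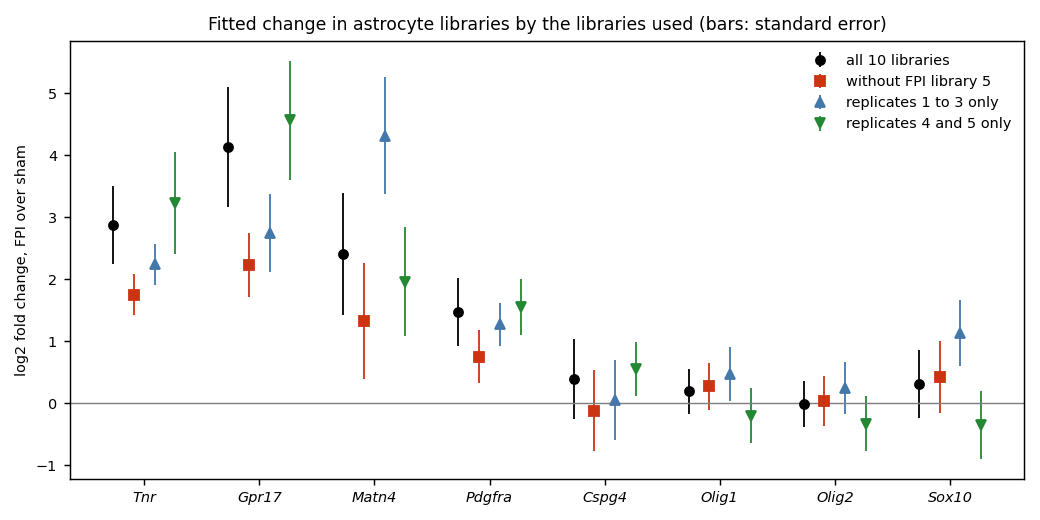
Fitted log2 fold change of FPI over sham (points) with its standard error (bars) for the 8 genes that passed the filter, from all 10 astrocyte libraries (black), without FPI library 5 (red), from replicates 1 to 3 (blue) and from replicates 4 and 5 (green). *Gpr17*, *Tnr* and *Pdgfra* are above 0 in all 4 fits and lowest without library 5, at 2.23, 1.75 and 0.75, as is *Matn4*, at 1.33.

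How far library 5 stood from its own group was measured by its CPM over the median of FPI libraries 1 to 4. The ratio was 14.9 for *Gpr17*, 7.53 for *Tnr*, 6.61 for *Matn4*, 4.69 for *Pdgfra* and 3.09 for *Cspg4*. Among the 13741 genes tested these were at ranks 8, 22, 41, 116 and 390. The genes were chosen in part for their values in this library, so the ranks are a description. The median of all genes was 0.977, and 1.23% of genes were above 4. *Neu4* and *C1ql1*, outside the filter, had ratios of 11.8 and 6.24. The transcription factors were on the other side, with 0.727 for *Olig2*, 0.605 for *Olig1* and 0.543 for *Sox10*. Against library 2, which carries the same animal number, library 5 held 10.1 times the CPM of *Gpr17*, 5.13 times that of *Tnr* and 4.71 times that of *Pdgfra*, but 0.62 times that of *Sox10*. Summing libraries 2 and 5 into 1 library left changes of 3.52 (SE 0.80) for *Gpr17*, 2.43 (0.51) for *Tnr* and 1.19 (0.48) for *Pdgfra*.

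**Figure D3:**
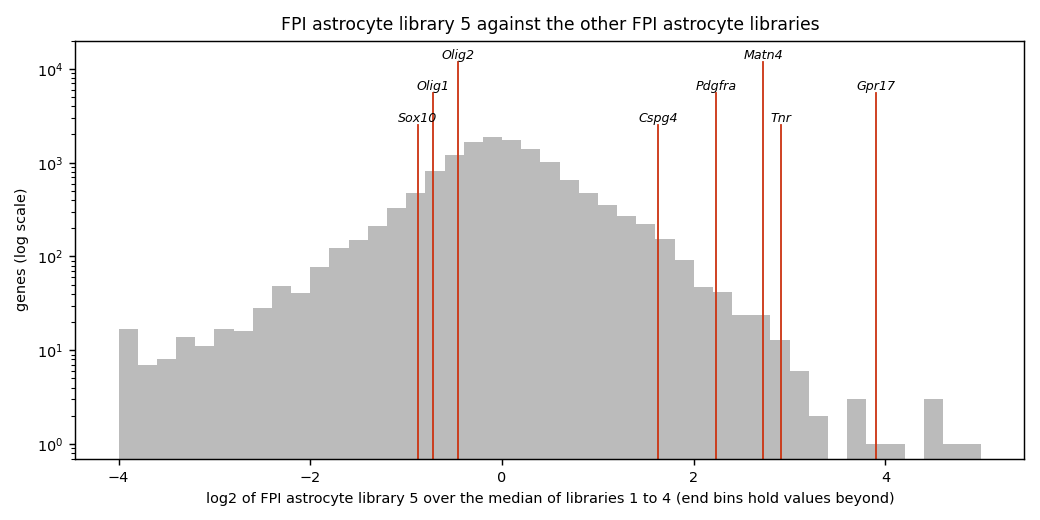
Histogram over genes (log axis) of the log2 ratio of FPI astrocyte library 5 to the median of FPI astrocyte libraries 1 to 4, with red lines at the 8 tested genes of the set, whose heights only separate the names. *Gpr17*, *Tnr*, *Matn4*, *Pdgfra* and *Cspg4* lie in the right tail and *Sox10*, *Olig1* and *Olig2* left of 0; genes with a ratio that cannot be formed are not shown.

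Astrocyte replicates 4 and 5 differed from replicates 1 to 3 within both groups. In sham mice replicates 4 and 5 were both above replicates 1 to 3 for *Tnr* (4.92 and 10.3 CPM against 3.48 to 4.69), *Gpr17*, *Matn4*, *Pdgfra* and *Cspg4*. Of tested genes 18.4% had this arrangement. For *Matn4* the mean of sham replicates 4 and 5 was 15.9 times that of replicates 1 to 3, for *Pdgfra* 2.84 times and for *Tnr* 1.86 times. In FPI mice it held for *Pdgfra* (36.5 and 97.1 CPM against 15.8 to 20.8) and *Cspg4* (507 and 794 CPM against 26.6 to 278), and for 12.6% of tested genes. *Tnr*, *Gpr17* and *Neu4* did not show it in FPI mice, where library 4 lay among libraries 1 to 3. The labels give no batch that separates these replicates. The genes were chosen in part for their values in these libraries, so this is a description and nothing is read from the shares.

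Within each subset the fitted change was above 0 for *Gpr17*, *Tnr*, *Matn4* and *Pdgfra*. From replicates 1 to 3 alone, 3 libraries a group, the changes were 4.32 (SE 0.95) for *Matn4*, 2.75 (0.63) for *Gpr17*, 2.24 (0.33) for *Tnr* and 1.27 (0.34) for *Pdgfra*. From replicates 4 and 5 alone they were 4.57 (0.96) for *Gpr17*, 3.23 (0.83) for *Tnr*, 1.96 (0.88) for *Matn4* and 1.55 (0.45) for *Pdgfra*. That subset holds FPI library 5, so it does not show the change apart from that library. For *Matn4*, FPI library 4 (2.93 CPM) lay between sham libraries 5 (2.65 CPM) and 4 (5.02 CPM), and FPI library 5 was at 27.4 CPM. The change of *Sox10* was 1.13 (0.53) in the first subset and -0.35 (0.55) in the second, and *Olig1* and *Olig2* likewise had opposite signs, 0.47 against -0.20 and 0.25 against -0.33. Both subsets were formed after the data had been seen. With a term for replicates 4 and 5 in a fit of all 10 libraries the changes were 3.61 (0.69) for *Gpr17*, 3.10 (0.73) for *Matn4*, 2.66 (0.48) for *Tnr* and 1.39 (0.28) for *Pdgfra*.

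Markers of other cells varied across the same libraries, and their part in the values was not tested. *Cspg4* had the same order of libraries within each group as the summed CPM of 8 mural cell genes (*Pdgfrb*, *Rgs5*, *Kcnj8*, *Abcc9*, *Vtn*, *Notch3*, *Acta2* and *Myl9*). That sum was 1370, 3570, 2540, 3910 and 7220 CPM in sham and 406, 3180, 3420, 5600 and 9790 CPM in FPI libraries. *Cspg4* came to 6.73 to 8.28% of the sum in sham and 6.55 to 9.06% in FPI libraries. All 8 mural genes were highest in FPI library 5, as were 17.0% of all tested genes. In the fit all 8 had a change above 0 with that library and below 0 without it, as *Cspg4* did. For *Pdgfra*, a set of 6 fibroblast genes was summed. It ranged from 156 to 265 CPM in sham libraries and from 173 to 314 CPM in FPI libraries 1 to 4, and stood at 680 CPM in FPI library 5, where all 6 genes were highest. Among them *Col1a2* was at 237 CPM in that library (45.2 to 109 CPM in the other FPI libraries) and *Col1a1* at 166 CPM (47.8 to 83.2). Of the 6, 4 were higher in FPI astrocytes at an unadjusted p below 0.05 in edgeR, and 1 without library 5. Of all genes tested 1.57% were higher at that threshold, and 1.05% without library 5. *Pdgfra* came to 3.07 to 11.5% of the fibroblast sum in sham and to 6.61 to 14.3% in FPI libraries, a wider range than that of *Cspg4* against the mural sum.

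The summed CPM of 13 mature oligodendrocyte genes, among them the myelin gene *Mbp*, was 4870, 2040, 1140, 11800 and 5140 in sham and 6170, 5910, 3600, 7220 and 2130 in FPI libraries. Sham library 4 was the highest and sham library 3 the lowest of all 10, as for *Sox10* and *Olig2*, while *Olig1* was highest in sham library 4 and lowest in sham library 2. *Sox10* came to 2.33 to 3.34% of that sum in sham libraries and to 2.96 to 5.23% in FPI libraries. *Olig1* came to 1.93 to 6.29% and 2.56 to 4.91%, and *Olig2* to 0.778 to 1.75% and 0.794 to 1.85%. FPI library 5, with the highest *Tnr*, *Gpr17* and *Neu4*, had the lowest sum of the FPI libraries, and none of the 13 genes was highest there. In the fit of FPI against sham none of the 13 had an unadjusted p below 0.05, and their median change was 0.02.

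The summed markers of microglia and of dividing cells were also highest in library 5. The sum of 11 microglial genes was 31.7 to 63.8 CPM in sham astrocytes, 46.7 to 140 CPM in FPI libraries 1 to 4 and 178 CPM in library 5, against 18800 to 29400 CPM in microglia libraries. *Trem2* and *Aif1* of that list were listed at 0 in at least 1 FPI astrocyte library. Most microglial genes were near 0 in sham astrocytes and passed the filter through the FPI libraries, so the count of those that differed is not read. *Csf1r* was at 2.40 ± 2.55 CPM in sham and 17.9 ± 15.1 CPM in FPI astrocytes, and *Cx3cr1* at 0.757 ± 0.570 and 7.75 ± 4.37 CPM (SD, n = 5). A set of 12 genes of the cell cycle summed to 23.2 to 52.7 CPM in sham astrocytes, to 38.3 to 55.6 CPM in FPI libraries 1 to 4 and to 112 CPM in library 5. Of the 12, 6 were highest in library 5. Its *Top2a*, which untangles DNA in dividing cells, was at 40.8 CPM there and at 13.5 CPM or less in the other FPI libraries. *Mki67* was at 14.5 CPM there, within the 4.33 to 14.7 CPM of the other FPI libraries. Of its 7 genes tested, *Kif11* (1.22, SE 0.50) and *Mcm5* (0.96, SE 0.43) were higher at an unadjusted p below 0.05, and none without library 5. The shares of all tested genes were 1.57% and 1.05%.

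**Figure D4:**
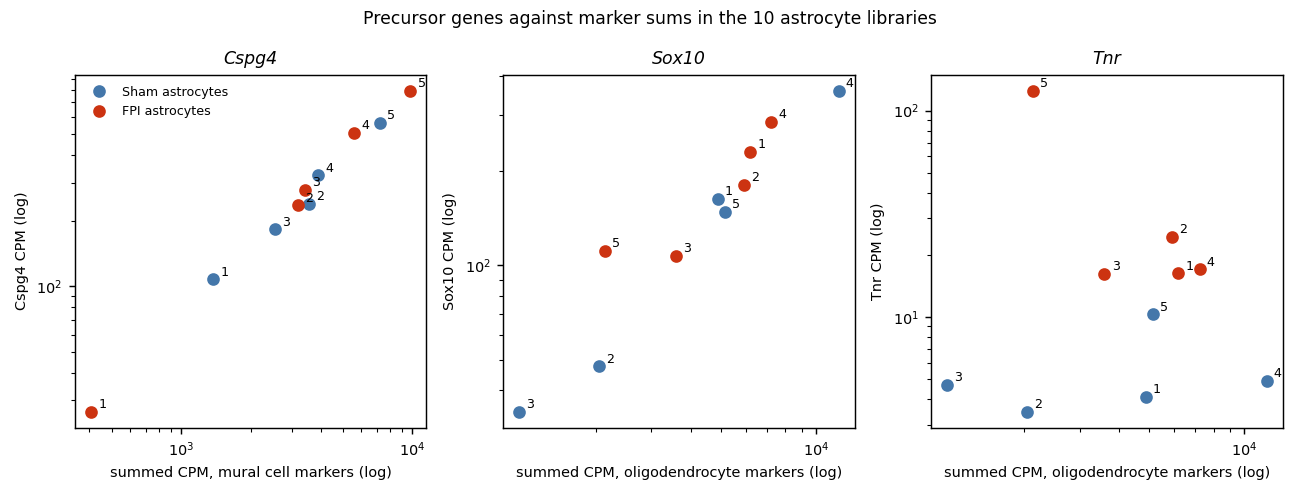
CPM of *Cspg4*, *Sox10* and *Tnr* (vertical, log axes) against the summed CPM of mural cell markers (left) or mature oligodendrocyte markers (middle and right; horizontal, log axes) in the 5 sham (blue) and 5 FPI (red) astrocyte libraries, numbered by replicate. *Cspg4* follows the mural sum from 26.6 to 794 CPM, *Sox10* is highest and lowest where the oligodendrocyte sum is, and *Tnr* in FPI library 5 (125 CPM) stands apart at a sum of 2130 CPM.

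A list of other OPC genes was read beside the 10. It was put together with earlier results of these libraries known and is not independent of them. Of 15 listed, 14 were found in the table and 13 were tested, and 12 of the 13 had a change above 0, as 49.2% of all tested genes did. Their median change was 0.45, against -0.01 for all genes. None was called after adjustment. At an unadjusted p below 0.05, 2 were higher in FPI astrocytes, *Vcan* (versican, a matrix proteoglycan of OPCs; 0.87, SE 0.30) and *Emid1* (1.03, SE 0.44), and none was lower. Of all genes tested 1.57% were higher and 0.75% lower at that threshold. Without FPI library 5 neither passed, at 0.60 and 0.63, while 1.05% of all genes did, and the median of the list was 0.32. The most abundant of the list had changes of either sign. *Sox8*, a relative of *Sox10*, had a change of 0.08 (SE 0.24), *Xylt1* (which starts the sugar chains of proteoglycans) of -0.35 (0.29) and *Mmp15* of 0.36 (0.22). Of the 13 tested, 8 were highest in FPI library 5 (*Vcan*, *Cacng4*, *Mmp15*, *Emid1*, *Shc4*, *Myt1*, *Dscam* and *Snx22*), as were 17.0% of all tested genes. *Myt1*, a zinc finger factor of the lineage, was at 13.9 CPM in that library and at 2.23 CPM or less in the other FPI libraries.

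Genes of the next stages of the lineage did not pass in either direction. Of 11 listed for committed precursors and newly formed oligodendrocytes 10 were tested, 8 had a change above 0, and the median was 0.39 with FPI library 5 and 0 without it. *Bcas1*, which marks oligodendrocytes as they start to myelinate, had 88.3 ± 65.5 CPM in sham and 135 ± 30.7 CPM in FPI astrocytes (SD, n = 5; change 0.65, SE 0.48), and *Itpr2* had a change of 0.10 (SE 0.22). *Mycl* was at 20.2 CPM in library 5 and at 1.62 to 3.75 CPM in the other FPI libraries. Of 18 relatives of the 10 genes in family or pathway 12 were tested, and none had an unadjusted p below 0.05. Among them the proteoglycan gene *Cspg5* had a change of -0.30 (SE 0.29), the sister receptor gene *Pdgfrb* of 0.13 (0.46), the tenascin gene *Tnc* of 0.02 (0.19) and the ligand gene *Pdgfa* of -0.19 (0.35).

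Genes were also ranked by the ratio of FPI library 5 to the highest of the other 9 astrocyte libraries, among the 9291 genes with at least 10 CPM in it. *Gpr17* had rank 1 (10.1), *Neu4* rank 4 (5.33), *Tnr* rank 5 (5.13), *Matn4* rank 8 (4.50) and *Pdgfra* rank 21 (2.66). These ranks are a description too, since the genes were chosen in part for this library. The rest of the first 15 were *3110035E14Rik* (9.92), *5730559C18Rik*, *Ptpro*, *Pbk*, *Col20a1* (a collagen gene, 4.44), *Mycl*, *Grik3*, *Irf7*, *Top2a*, *Icam1* and *Rai2* (2.92). *Pbk* and *Top2a* belong to dividing cells, and *Irf7*, a regulator of interferon genes, and *Icam1*, an adhesion molecule, to the response to inflammation. *3110035E14Rik*, at 33.5 CPM in library 5, was at 3.37 CPM or less elsewhere.

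The genes most like the set in pattern were found by the Pearson correlation of their log2 CPM with the mean log2 CPM of the 10 genes, a description over libraries that share dissociation and depth. Over all 10 astrocyte libraries the closest were *Serpina3n* (a marker of reactive astrocytes, r = 0.944), *Iigp1* (0.943), *Col20a1* (0.910), *Il6st* (0.910) and *Icam1* (0.909). Over the 9 libraries without FPI library 5 they were *Slc31a2* (0.966), *PLA2G4B* (0.962), *Serpina3n* (0.951), *Tnfrsf14* (0.944) and *Aebp1* (0.943). *Serpina3n* and the complement gene *C4b* were the 2 genes among the first 10 in both rankings. *Serpina3n* reached 37.5 CPM at most in sham libraries, 118 CPM at most in FPI libraries 1 to 4 and 200 CPM in library 5.

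Per kilobase of exon, the scale on which genes can be compared, the transcription factors and *Cspg4* stood well above the rest in astrocytes. In sham libraries *Olig1* had 63.1 ± 34.9 CPM per kb, *Sox10* 49.4 ± 42.8, *Cspg4* 23.8 ± 14.8 and *Olig2* 20.8 ± 12.4 (mean ± SD, n = 5), and these neighbours differed by less than their spread. *Pdgfra* followed at 1.39 ± 0.849 CPM per kb, then *Gpr17* at 0.573 ± 0.328, *Tnr* at 0.428 ± 0.214, *Matn4* at 0.324 ± 0.415, *C1ql1* at 0.268 ± 0.268 and *Neu4* at 0.00544 ± 0.0122. From *Gpr17* to *C1ql1* neighbours again differed by less than their spread. In FPI library 5 *Gpr17* reached 38.9 CPM per kb, next to *Sox10* at 36.5 and *Olig1* at 48.3, while *Pdgfra* (9.69), *Tnr* (9.73), *C1ql1* (5.63), *Matn4* (5.30) and *Neu4* (5.09) stayed below.

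Microglia gave the reference, in libraries outside the contrast by which the genes were chosen. The choice was still made with earlier results of these data known. All 10 were low there, and 3 of them, *Cspg4*, *Pdgfra* and *Sox10*, passed the filter. *Tnr* had 1, 5, 19, 0 and 6 counts in sham microglia libraries 1 to 5 and 12, 5, 6, 8 and 0 counts in FPI microglia. *Gpr17* had 4, 2, 0, 0 and 6 counts in sham and 0, 23, 8, 2 and 0 counts in FPI microglia. For both genes the groups overlapped. *Neu4* was listed with 0 to 3 counts, *C1ql1* with 0 to 4 and *Matn4* with 0 to 9 per library, mostly 0 in either group, which is too shallow for a comparison. *Olig1* was at 2.08 CPM or less and *Olig2* at 4.43 CPM or less in each microglia library.

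*Cspg4* was higher in FPI microglia. Its counts were 11, 16, 10, 22 and 4 in sham and 127, 43, 42, 42 and 17 in FPI libraries, or 1.38 ± 0.660 and 6.77 ± 4.76 CPM (SD, n = 5), and only FPI library 5 lay within the sham range. The log2 change was 2.29 (SE 0.55) with an adjusted p of 0.0349 in edgeR. By the rule 1 of the 3 tested genes was called higher, and 2.13% of the 12143 genes tested in microglia were (0.214% were called lower). *Cspg4* passed the filter mainly through the FPI libraries, where it is higher. Its p and its call are therefore a description, and nothing is read from the count. The call was lost without FPI microglia library 1 (1.76, adjusted p = 0.153), without sham microglia library 2 (2.22, adjusted p = 0.112) and with all 20 libraries in 1 fit (2.26, adjusted p = 0.199). Astrocyte marker sums were 258 to 388 CPM in sham and 309 to 640 CPM in FPI microglia, with 618 CPM in library 1, and mural sums 22.1 to 51.8 and 19.4 to 57.7 CPM, with 57.7 CPM in library 1. The part of these cells in the *Cspg4* counts was not tested.

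*Pdgfra* had the opposite sign. It had 28, 65, 23, 14 and 14 counts in sham and 11, 14, 6, 6 and 0 counts in FPI microglia, or 3.01 ± 1.19 and 0.934 ± 0.651 CPM, with FPI library 2 alone reaching into the sham range. The change of -1.66 (SE 0.74) did not pass (adjusted p = 0.379 in edgeR). *Sox10* had 0, 8, 26, 29 and 1 counts in sham and 0, 32, 21, 31 and 13 counts in FPI microglia, a difference of 0.87 on the log2 scale (SE 0.97, adjusted p = 0.842). The effect of FPI in astrocytes was not tested against that in microglia, since the genes were chosen on the first.

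Sham microglia were also set against sham astrocytes, whose libraries are the base of the astrocyte differences by which the genes were chosen. Of the 6 genes that passed the filter, all but *Pdgfra* did so through the astrocyte libraries, where they are high. All 6 were called lower in microglia, as were 33.9% of the 13659 genes tested, and nothing is read from that count. The log2 differences are given as a description, without p. They were -7.67 (SE 0.71) for *Olig2*, -7.58 (0.52) for *Cspg4*, -7.37 (0.65) for *Olig1* and -6.64 (0.90) for *Sox10*. The differences were smaller for *Tnr*, -2.83 (0.78), and for *Pdgfra*, -2.13 (0.46). Mature oligodendrocyte genes were lower too, 13 of 13, as were the 8 mural cell genes and the 12 astrocyte genes of their lists. Sham astrocyte libraries 4 and 5 share animals with sham microglia 2 and 3. The same 6 genes were called without those astrocyte libraries, and nothing is read from that either.

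**Figure D5:**
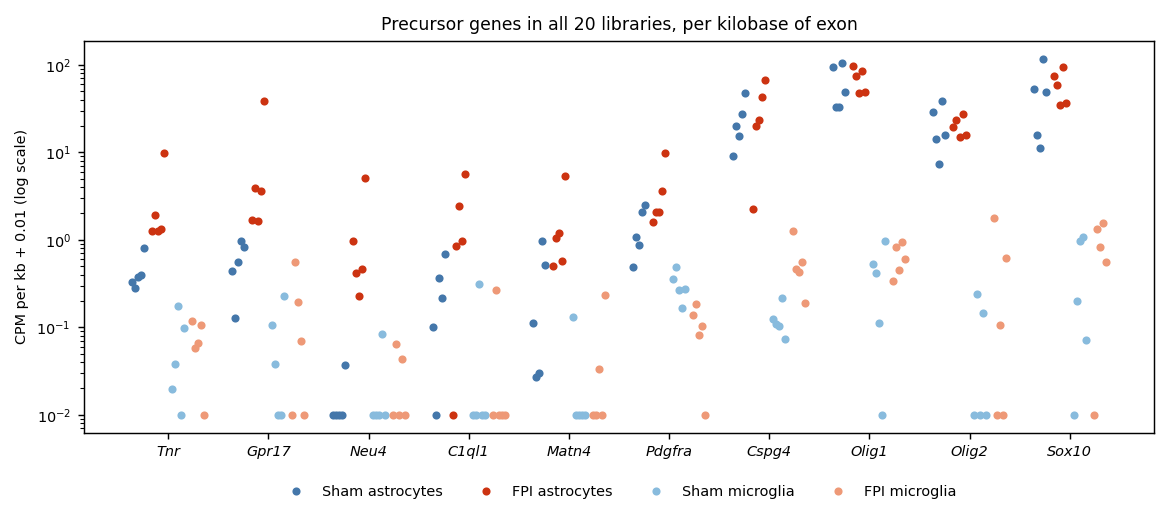
CPM per kilobase of exon, with 0.01 added (log axis), of the 10 genes in the 5 libraries of each group: sham astrocytes (dark blue), FPI astrocytes (red), sham microglia (light blue) and FPI microglia (orange), replicates 1 to 5 from left to right within a group. Points at 0.01 are libraries with no count; the astrocyte points of *Olig1*, *Olig2*, *Sox10* and *Cspg4* stand above every microglia point of the same gene, and those of *Neu4* and *C1ql1* do not.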

How the data were processed

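The authors prepared libraries from sorted cells with a stranded kit for picogram amounts of total RNA. Per the labels, reads were aligned with HISAT2 2.1.0 to GRCm38 (mm10) and featureCounts is among the tools named; the deposited values are whole-number read counts per gene for 39017 Ensembl identifiers, not normalized. Groups came from the sample titles. Coordinates and exon lengths were taken from GENCODE M21, which held 37693 identifiers. Counts were fitted in edgeR 4.0.16 (R 4.3.3) with its default low-count filter, TMM factors and the quasi-likelihood test, separately for FPI against sham in each cell type and for sham microglia against sham astrocytes. Benjamini-Hochberg adjustment ran over all tested genes. The test was checked on simulated data. The 10 genes and all gene lists were chosen with earlier results of these data known. The values of 1 gene of the lists are not reported here, nor do they enter a sum. Named genes were the 10, the other OPC genes, the 2 most abundant of other lists plus any that pass a count, and those ranked highest by the stated ratio and correlation. *Emid1*, *Myt1*, *Tnc* and *Pdgfa* were given values after these had been seen. Alternatives were RLE factors, DESeq2 1.42.0, other filters, all 20 libraries together, a replicate block, terms for replicates 4 and 5 or for the naming series in microglia, libraries 2 and 5 summed, and omitting each library. Promoters are RefSeq's for 5 of the genes, trimmed of exons. Tables and figures were made in Python 3.11.15 with pandas 2.3.3, numpy 2.4.6, matplotlib 3.10.9 and scipy 1.17.1. P-values measure the spread between libraries.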

Additional observations from a re-analysis of the deposited data

Results flagged for a closer look

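In each group of 5 libraries the highest and lowest values were compared with the rest, for the 10 genes and for 5 sums over gene lists, and a value was marked when its gap to its nearest neighbour was more than 0.71 of the range of its group. Of 60 groups of values 14 were marked, and chance marks about 1 in 20. The 10 genes were chosen in part for their values in FPI astrocyte library 5, so its marks are a description and the number marked is not read against chance. FPI astrocyte library 5 accounted for 6: *Tnr* at 125 CPM (16.2 to 24.4 CPM in the other 4), *Gpr17* at 202 CPM (8.58 to 20), *Matn4* at 27.4 CPM (2.57 to 6.09), *Pdgfra* at 97.1 CPM (15.8 to 36.5), *Neu4* at 23.6 CPM (0.995 to 4.43) and the summed cell cycle genes at 112 CPM (38.3 to 55.6). Sham astrocyte library 5 was marked for *Tnr* at 10.3 CPM (3.48 to 4.92) and for *Neu4* at 0.126 CPM, a single count. A further 5 were microglia libraries with 3 to 9 counts among libraries with at most 1: *Neu4* at 0.34 CPM in sham library 4, *C1ql1* at 0.447 CPM in sham library 3 and 0.374 CPM in FPI library 2, and *Matn4* at 0.624 CPM in sham library 1 and 1.15 CPM in FPI library 5. The last was the summed mature oligodendrocyte genes in sham microglia library 3, lowest at 112 CPM (146 to 155 CPM in the other 4).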

How the results depend on the processing

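In astrocytes none of the 10 genes was called in 17 of the 20 alternatives, 1 was called with all 20 libraries in 1 fit, 1 with every gene of at least 1 count, and 2 with the replicate block, whose changes were 3.17 (SE 0.61) for *Gpr17*, 2.92 (0.88) for *Matn4*, 2.44 (0.29) for *Tnr* and 1.36 (0.20) for *Pdgfra*. DESeq2 gave no p for *Tnr* and *Gpr17*. In microglia 1 gene was called, 0 with all 20 libraries together, 0 with at least 10 counts in every library (where *Cspg4* could not be fitted), and 0 to 1 when each library was left out. With the replicate block *Cspg4* kept its call (2.16, adjusted p = 0.0628); over its alternatives the change ran from 1.76 to 2.60 and the adjusted p reached 0.199. Of 6 genes lower in sham microglia than in sham astrocytes, 1 (*Pdgfra*, the only 1 of them that could be fitted) was called with at least 10 counts in every library, and 6 to 7 were called when each library was left out. Of the other OPC genes 2 were higher at an unadjusted p below 0.05, 1 with libraries 2 and 5 summed, 1 with all 20 libraries together, 1 in replicates 1 to 3, 4 in replicates 4 and 5, 3 with the replicate block, and 0 to 3 when each library was left out: 0 without FPI library 5 and 1 without sham library 2, 3 or 4. The cause of these shifts was not tested. Apart from the fit without FPI library 5, shares of all genes are not given for the alternatives, so nothing is read from these counts. Same-numbered sham and FPI astrocyte libraries deviated together with correlations of 0.45, -0.01, 0.25, 0.45 and 0.35, so the numbers were not taken to pair them; 3 of 5 correlated best with their own number. In microglia the correlations were -0.07 to 0.09. Depth limits *Neu4*, *C1ql1* and most of the microglia values, where 3 counts or fewer are at the floor.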
